A study of Homo sapiens with 10 samples.

Results

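The genes described here are NFE2L2, which encodes the transcription factor NRF2, its inhibitor KEAP1, and 7 antioxidant genes that NRF2 is known to activate: NQO1, HMOX1, GCLC, GCLM, TXNRD1, SRXN1 and TXN. They were chosen by name and matched by symbol, and all 9 were found among the 32738 genes of the count table. HepG2 cells, a human hepatoma line, were kept in regular growth medium (untreated) or in the same medium with 2 µg/ml tunicamycin for 17 h. Tunicamycin blocks N-linked glycosylation, so that proteins misfold in the endoplasmic reticulum (ER). Total RNA of 5 cultures per condition, from experiments on separate days, was sequenced from the 3′ ends of mRNAs. Such a library gives about one fragment per transcript, so its counts need no division by transcript length. All libraries come from a single cell line, and mRNA was measured but NRF2 protein was not. In RNA from whole cultures, a lower level in every cell cannot be told apart from a loss in a share of the cells.

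NRF2 is controlled mainly as a protein. In unstressed cells KEAP1 holds it and passes it to a CUL3 and RBX1 ubiquitin ligase for destruction. Oxidants and electrophiles modify KEAP1, after which NRF2 accumulates, pairs with a small MAF protein and binds antioxidant response elements (AREs). In the liver its targets supply glutathione, reduce thioredoxin and quinones and break down haem. The ER stress kinase PERK, encoded by EIF2AK3, is known to phosphorylate NRF2, and several of its targets, HMOX1 among them, are also under other stress factors.

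Matches to the ARE core TGACNNNGC near a start site are shown for the members that have one, since this is the sequence NRF2 binds. RefSeq windows of 300 bases on GRCh38.p14, from 250 bases before to 50 after an annotated start, were found for 8 of the 9 members, and HMOX1 had none. Searched on both strands, GCLM, KEAP1 and TXNRD1 held a match. By window, that was 4 of the members' 11, and 13.3% of all 35116. Sequence outside these windows was not searched, so a member without a match here may still have an ARE elsewhere. The strand printed is that of the gene, and capitals mark the match, where a match on the opposite strand appears as its reverse complement.
GCLM, opposite strand, 34 to 26 bases before the start: acgatttctGCTTAGTCAttgtcttcc
KEAP1, opposite strand, 31 to 23 bases before the start: cccggctctGCTTAGTCAtggtgacct
TXNRD1, downstream of its 2 annotated starts, opposite strand, 102 to 94 bases before it: tggatttctGCTTTGTCAttctgactc

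The GCLM stretch lies at chr1:93909447-93909473, that of KEAP1 at chr19:10502785-10502811 and that of TXNRD1 at chr12:104286921-104286947. KEAP1 held 1 more match and the upstream TXNRD1 window held 2 more. The 9 capitals of GCLM and KEAP1 were the same. The AP-1 letters TGACTCA (4.95% of all windows), the ATF4 composite letters TGATGNAA (3.62%), the UPR element TGACGTG (1.97%) and the ER stress response element (0.0769%) were found in none of the members' windows, also on both strands. The AP-1 letters can overlap an ARE core.

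The libraries held 2234682 to 5029864 counts, the lowest in tunicamycin replicate 5. Of 12733 genes that passed a filter on low counts, edgeR's quasi-likelihood test with Benjamini-Hochberg adjustment called 17.6% higher and 16.6% lower with tunicamycin. Of the called genes 51.4% were higher, against 40.8% when libraries were scaled by total counts only. The treatment acted in each library: HSPA5, the ER chaperone BiP, rose to 60353 to 72113 normalized counts from 7735 to 9289, and DDIT3, the stress factor CHOP, to 346 to 493 from 137 to 186. Normalized counts are counts corrected for library size with TMM factors and brought to the mean size, and values after ± are SDs over the 5 libraries of a condition. All 10 hepatocyte markers were present, 5 of them lower and 1 higher, and their sum was 68205 to 86423 in untreated and 55248 to 61638 in tunicamycin libraries. Of 11 markers of other cell types 6 had no count, and the sum, mostly ACTA2, was 109 to 164 and 54.9 to 201. The part of the hepatocyte markers' shift in the values below was not tested.

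Of the 9 genes 8 passed the filter. At an adjusted p under 0.05, 5 were higher with tunicamycin (TXN, GCLC, TXNRD1, GCLM and NQO1) and 1 was lower (HMOX1), while NFE2L2 and KEAP1 did not pass. Of all tested genes 17.6% were called higher and 16.6% lower. For the 5 higher genes every tunicamycin library lay above every untreated library, which held for 11.7% of all tested genes, and for HMOX1 every one lay below, which held for 11.9%. An exact two-sided permutation test of 5 against 5 libraries gave each of these 6 genes p = 0.00794, the smallest it can give. Libraries that do not overlap always give this value, so the test adds nothing to the separation. The median log2 fold change of the 8 genes was 0.63, against -0.0033 for all tested genes, and their values ran from -1.80 to 1.82.

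**Figure D1:**
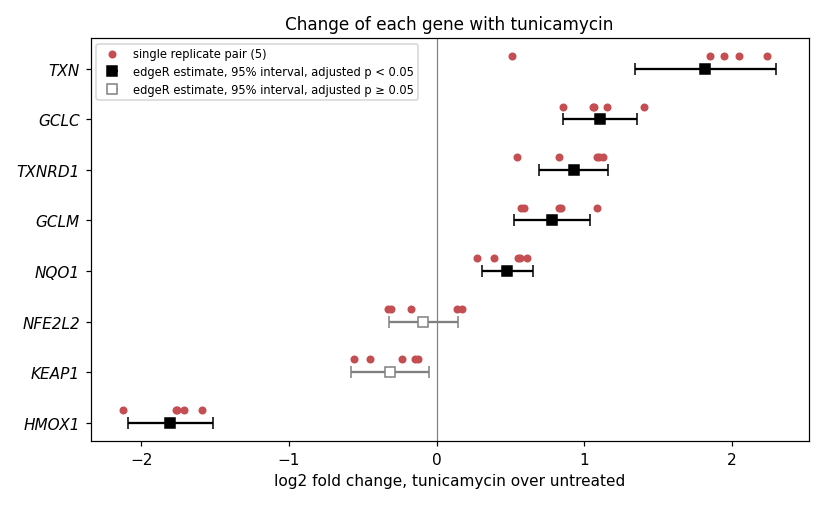
The log2 fold change of each tested member with tunicamycin (x axis), as the edgeR estimate with its 95% interval (squares, filled where the adjusted p is under 0.05) and within each of the 5 replicate pairs (red points). HMOX1 lies at -1.80 and TXN at 1.82, with 1 TXN pair far to the left of the others at 0.51, and the NFE2L2 pairs lie on both sides of 0.

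The message of NRF2 itself did not pass the test. NFE2L2 (chromosome 2, 177218667 to 177392756 of GRCh38, minus strand) had 357, 450, 486, 453 and 400 normalized counts across untreated replicates 1 to 5, and 402, 494, 391, 401 and 319 with tunicamycin. The groups overlapped throughout, and it was higher in 2 pairs and lower in 3. Its log2 fold change was -0.09 (standard error 0.11, edgeR adjusted p = 0.569), with a 95% interval from -0.32 to 0.14.

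KEAP1 (chromosome 19, 10486125 to 10503558, minus strand) encodes the sensor that holds NRF2. It had 218, 214, 182, 140 and 188 normalized counts in untreated libraries and 159, 145, 164, 128 and 159 with tunicamycin. It was lower in 5 of 5 pairs, but untreated replicate 4 lay below 4 of the tunicamycin libraries. The log2 fold change was -0.32 (standard error 0.13), with an adjusted p of 0.0608 in edgeR's test. With the replicate number as a block the same test called it lower (-0.32, adjusted p = 0.0276), as it did without untreated replicate 4 (-0.40, adjusted p = 0.0137) and with scaling by total counts only (-0.39, adjusted p = 0.0289). DESeq2 with the block did not call it (adjusted p = 0.0857). KEAP1 counts relative to NFE2L2 counts in the same library, a value that no scaling affects, changed by -0.20 on the log2 scale (SD 0.37 in untreated and 0.31 in tunicamycin libraries, n = 5 each), with an exact two-sided permutation p of 0.381 (also 0.381 when adjusted over 3 ratios).

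The other proteins that act on NRF2 or bind beside it were followed with a list of 20 genes. Of these, 9 were called higher and 2 lower, against 17.6% and 16.6% of all tested genes. SYVN1, an ubiquitin ligase of ER-associated degradation that can also target NRF2, rose most, from 134 ± 46.3 to 555 ± 82.8 normalized counts (log2 fold change 2.05). NFE2L1, the ER-anchored relative NRF1, rose from 256 ± 24.2 to 481 ± 15 (log2 fold change 0.91). PGAM5, a mitochondrial phosphatase that binds KEAP1, and NFE2L3, another relative, had log2 fold changes of 0.88 and 0.84. The small MAF partners MAFF (0.87), MAFG (0.52) and MAFK (0.49) all rose, as did SQSTM1, which draws KEAP1 into autophagy (0.41). EIF2AK3 was called higher at 0.47 (edgeR adjusted p = 0.0229), but lost the call in 4 of 10 fits without a library (untreated replicate 2 or 4, tunicamycin replicate 2 or 3) and with scaling by total counts only.

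RXRA, a nuclear receptor that can repress NRF2, fell from 419 ± 42.6 to 242 ± 33.6 (log2 fold change -0.78), with all tunicamycin libraries below the untreated ones. RBX1 was called lower at -0.29 (adjusted p = 0.0342), but lost the call in 7 of 10 fits that left out a library, with adjusted p-values up to 0.0918. With the replicate block CREBBP, a coactivator, joined KEAP1 among the lower genes of the whole list of 22, which made 4 in place of 2. Over all tested genes 2312 were then lower, in place of 2116. BACH1, the repressor that competes for AREs, had a log2 fold change of 0.35 and did not pass (adjusted p = 0.338), at only 26.7 ± 10.8 and 34.2 ± 8.11 normalized counts. CUL3 did not pass either (0.31, edgeR adjusted p = 0.0575), but with the block edgeR called it higher (0.32, adjusted p = 0.0409) and DESeq2 did not.

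**Figure D2:**
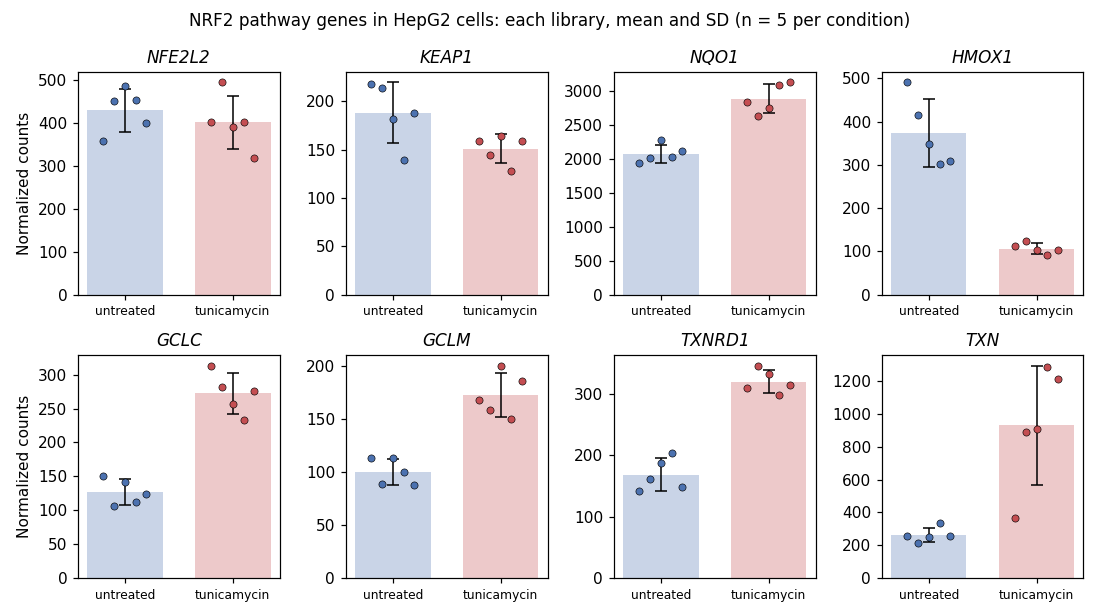
Normalized counts (y axes, from 0) of the 8 tested members in each library, with replicates 1 to 5 from left to right within a condition. Bars are means and whiskers SD (n = 5 per condition). Points of the conditions overlap for NFE2L2 and KEAP1 and are apart for the other 6 genes.

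Both subunits of glutamate-cysteine ligase, the rate-limiting enzyme of glutathione synthesis, rose. GCLC, the catalytic subunit (chromosome 6, 53497341 to 53616970, minus strand), had 150, 106, 142, 112 and 124 normalized counts across untreated replicates 1 to 5, and 313, 282, 257, 234 and 276 with tunicamycin. The lowest tunicamycin library was well above the highest untreated one. The log2 fold change was 1.11 (standard error 0.12, edgeR adjusted p = 8.78e-07), or 2.15-fold.

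GCLM, the modifier subunit that lowers feedback inhibition (chromosome 1, 93885199 to 93909456, minus strand), had 113, 88.3, 113, 99.5 and 87.4 normalized counts in untreated cells and 168, 159, 200.3, 150 and 186 with tunicamycin. Again no libraries overlapped, with a log2 fold change of 0.78 (standard error 0.12, edgeR adjusted p = 7.29e-05). The GCLM to GCLC ratio in a library was 0.793 in untreated and 0.634 in tunicamycin cells as a geometric mean, a difference of -0.32 on the log2 scale. The paired differences, all below 0, ran from -0.56 to -0.03 (exact two-sided permutation p = 0.0238, or 0.0714 when adjusted over 3 ratios), so the unequal rise did not hold after adjustment. Without untreated replicate 4 the unadjusted p was 0.0556.

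Among 31 further tested genes of glutathione synthesis and use, 8 were called higher and 9 lower, against 17.6% and 16.6% of all tested genes. GLRX, glutaredoxin, rose from 160 ± 36.9 to 507 ± 71.2 normalized counts (log2 fold change 1.66). SLC3A2, the heavy chain shared by the cystine importer, rose from 1383 ± 193 to 3293 ± 384 (1.25), and SLC7A11, the importer's own light chain, from 802 ± 112 to 1375 ± 53.1 (0.78). GSR, which regenerates glutathione, rose from 304 ± 59.4 to 565 ± 120.4 (0.89). Among the genes that fell were GSTK1 (-0.62), a transferase, and the peroxidases GPX2 (-0.54) and GPX3 (-0.52), which spend glutathione. OPLAH, which returns glutamate from oxoproline, was called at -0.49 but lost the call in 6 of 10 fits without a library. The median of the whole list of 33 genes, GCLC and GCLM included, was -0.0029. Transferase genes of a family are alike in sequence, and how reads between them were assigned is not given in the sources used here.

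TXN, thioredoxin, the small protein that reduces disulfides in enzymes and peroxiredoxins (chromosome 9, 110243810 to 110256507, minus strand), changed most of the members that rose. It had 255, 215, 251, 334 and 256 normalized counts across untreated replicates 1 to 5, and 363, 888, 906, 1286 and 1211 with tunicamycin. Tunicamycin replicate 1 was close to the untreated range and the other 4 were far above it. The log2 fold change was 1.82 (standard error 0.23, edgeR adjusted p = 5.41e-06), or 2.03 (standard error 0.13) without that library. The SD among tunicamycin libraries was 39.1% of the mean, against 6.0% to 15.5% for the other tested members.

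A low tunicamycin replicate 1 is shown for 3 other genes. IARS was selected for its likeness to TXN over these libraries, and the others because their values were seen to be uneven. They are not the only such genes. For SYVN1, GLRX, PRDX3, IDH1 and FTH1 replicate 1 was lowest in the untreated as well as the tunicamycin libraries. For others, such as RXRA and TKT, it was highest in both conditions. IARS, an aminoacyl-tRNA synthetase and the gene whose pattern was nearest to that of TXN, had 182 normalized counts in tunicamycin replicate 1 and 339 to 540 in the other 4. PRDX5, a peroxiredoxin, had 280 there, within the untreated range of 237 to 284, and 414 to 1158 in the others. ABCC1, an exporter of glutathione conjugates, had 43.9 there and 88.3 to 265 in the others. Its untreated replicate 1 was also the lowest of its condition (18.9, against 27.6 to 50.8). Tunicamycin replicate 1 had the highest total, 5029864 counts, and the lowest mitochondrial share, 18.3% against 21.3% to 28.8% in the other 4. The part of these in the TXN value was not tested, and in this library HMOX1, GCLM, TXNRD1 and NQO1 lay within the range of the other 4 while GCLC was highest.

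**Figure D3:**
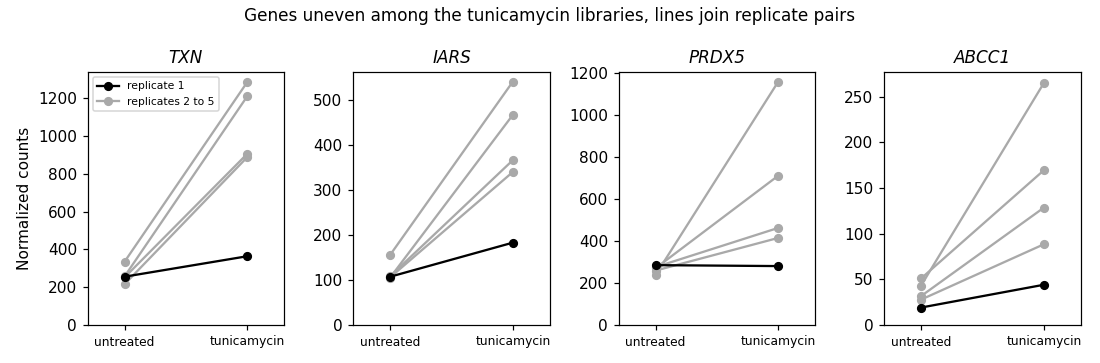
Normalized counts (y axes, from 0) of TXN, IARS, PRDX5 and ABCC1 in untreated and tunicamycin libraries, with a line for each replicate pair. Pair 1 (black) rose from 255 to 363 for TXN and did not rise for PRDX5 (284 to 280), while for TXN tunicamycin libraries 2 to 5 (grey) reached 888 to 1286.

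TXNRD1, the selenoenzyme that reduces TXN with NADPH (chromosome 12, 104215779 to 104350307, plus strand), had 141, 161, 187, 204 and 148 normalized counts in untreated cells and 309, 346, 333, 298 and 315 with tunicamycin. It rose 1.90-fold, by 0.54 to 1.13 on the log2 scale within pairs, with a log2 fold change of 0.93 (standard error 0.11, edgeR adjusted p = 2.94e-06). The TXNRD1 to TXN ratio fell by 0.78 on the log2 scale in the mean, but rose in pair 1 by 0.62, and the exact two-sided permutation p was 0.0556 (0.0833 adjusted over 3 ratios). Without tunicamycin replicate 1 the difference was -1.08 (unadjusted exact permutation p = 0.00794). That library was singled out by its low TXN value, so this p is no independent test of the ratio.

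SRXN1, sulfiredoxin, which repairs overoxidized peroxiredoxins (chromosome 20, 646615 to 653200, minus strand), had 0 counts in all 10 libraries and could not be tested. An exon of another protein-coding gene on the same strand, ENSG00000270299, overlaps its last exon, where 3′ reads fall, and 289 of its last 300 bases are found in that gene at 100% identity. That gene also had 0 counts, and how reads on shared exons were handled is not given in the sources used here, so the zeros give no level of SRXN1.

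Of 17 other tested genes of the thioredoxin and peroxiredoxin system, 5 were higher and 2 lower, against 17.6% and 16.6% of all tested genes. TXNIP, which inhibits thioredoxin, rose from 291 ± 34.8 to 518 ± 63 normalized counts (log2 fold change 0.83), and PRDX3, the mitochondrial peroxiredoxin, from 215 ± 56 to 374 ± 75.5 (0.79). PRDX1, by far the most abundant peroxiredoxin here, fell from 3756 ± 398 to 2949 ± 96.4 (-0.35), and NXN, nucleoredoxin, fell by 0.36 on the log2 scale. The mitochondrial pair TXN2 (-0.03) and TXNRD2 (-0.08) did not pass the test.

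NQO1, the quinone reductase and the most abundant of the members (chromosome 16, 69706996 to 69726668, minus strand), had 1938, 2020, 2286, 2027 and 2118 normalized counts across untreated replicates 1 to 5, and 2841, 2641, 2757, 3097 and 3132 with tunicamycin. All tunicamycin libraries were higher, but the rise was the smallest among the 5 that rose, 1.39-fold (log2 fold change 0.48, standard error 0.08, edgeR adjusted p = 0.000187). Its last exon is overlapped on the opposite strand by a noncoding RNA gene, ENSG00000261602, which held 1 count in all.

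Of 28 other tested genes that handle quinones, carbonyls and conjugates, 9 were higher and 2 lower, against 17.6% and 16.6% of all tested genes. Among those with a mean of at least 20 normalized counts, the largest changes were those of ABCC1, from 34.4 ± 12.6 to 139 ± 84.5 normalized counts (log2 fold change 1.98), and of the aldo-keto reductases AKR1B10 (1.78), AKR1C1 (1.52) and AKR1C2 (1.44). For ABCC1 the conditions overlapped, since tunicamycin replicate 1 (43.9) lay below untreated replicate 5 (50.8). AKR1C1 rose from 469 ± 35.9 to 1348 ± 110.9. AKR1C1 and AKR1C2 are nearly the same in sequence, so the counts of either are uncertain. Of the other aldo-keto reductases in the list, AKR1B1 was called higher (0.43), but AKR1A1, AKR1C3, AKR7A2 and AKR7A3 did not pass. The epoxide hydrolases EPHX1 (-0.77) and EPHX2 (-0.75) fell. OSGIN1, another common NRF2 target, had 37.9 ± 10.1 and 37.4 ± 9.93 normalized counts and did not pass (adjusted p = 0.996).

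HMOX1, the inducible haem oxygenase that splits haem into biliverdin, iron and carbon monoxide, was the only member that edgeR called lower with all libraries, TMM scaling and no replicate block (chromosome 22, 35380361 to 35394214, plus strand). It had 491, 416, 347, 303 and 310 normalized counts across untreated replicates 1 to 5, and 112, 123, 102, 92 and 103 with tunicamycin. The highest tunicamycin library was far below the lowest untreated one. The log2 fold change was -1.80 (standard error 0.14, edgeR adjusted p = 1.02e-08), to 0.287 of the untreated level, and 0.887% of all tested genes had a lower value. Within pairs it ranged from -2.12 to -1.59.

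Of 10 other tested genes of haem breakdown and ferritin, 2 were called higher and 0 lower, against 17.6% and 16.6% of all tested genes. The constitutive oxygenase HMOX2 had 158 ± 12.3 and 149 ± 25.4 normalized counts (adjusted p = 0.612). FTH1, the ferritin heavy chain that stores iron, rose from 1894 ± 550 to 3205 ± 221 (log2 fold change 0.76), and FECH, which inserts iron into haem, from 34.9 ± 8.14 to 63.5 ± 14.3 (0.83). FTL, the ferritin light chain, had 19602 ± 2467 and 23543 ± 3649 normalized counts and did not pass (0.26, edgeR adjusted p = 0.0657). With the replicate block both edgeR (adjusted p = 0.0196) and DESeq2 (adjusted p = 0.0320) called it higher. Without untreated replicate 1, or without tunicamycin replicate 5, 4 genes were called higher in place of 2, FTL among them. Over all tested genes 2136 and 2031 were then higher, in place of 2237. FTH1 has many processed copies in the genome, to which its reads could be lost.

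In the list for the supply of NADPH, which TXNRD1, GSR and NQO1 use, 4 of 14 tested genes were higher and 4 lower. The shares of all tested genes were 17.6% and 16.6%. Some enzymes of this list, ME2, MTHFD2 and TKT among them, are not mainly makers of NADPH, and NADPH was not measured. The folate enzymes ALDH1L2 (log2 fold change 1.67) and MTHFD2 (1.28), malic enzyme ME2 (0.91) and isocitrate dehydrogenase IDH1 (0.89) rose. MTHFD1 (-0.71), the transketolase TKT (-0.42), IDH2 (-0.39) and NNT (-0.37) fell, NNT losing its call in 5 of 10 fits without a library.

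Of 10 tested genes that remove superoxide and hydrogen peroxide, 2 were higher and 3 lower, against 17.6% and 16.6% of all tested genes. SOD2, the mitochondrial superoxide dismutase, rose at 0.51 on the log2 scale and SEPP1, selenoprotein P, at 0.46. Catalase, CAT, fell from 246 ± 45.3 to 175 ± 25 normalized counts (-0.51), and OXR1 (-0.64) and PON2 (-0.47) fell too.

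**Figure D4:**
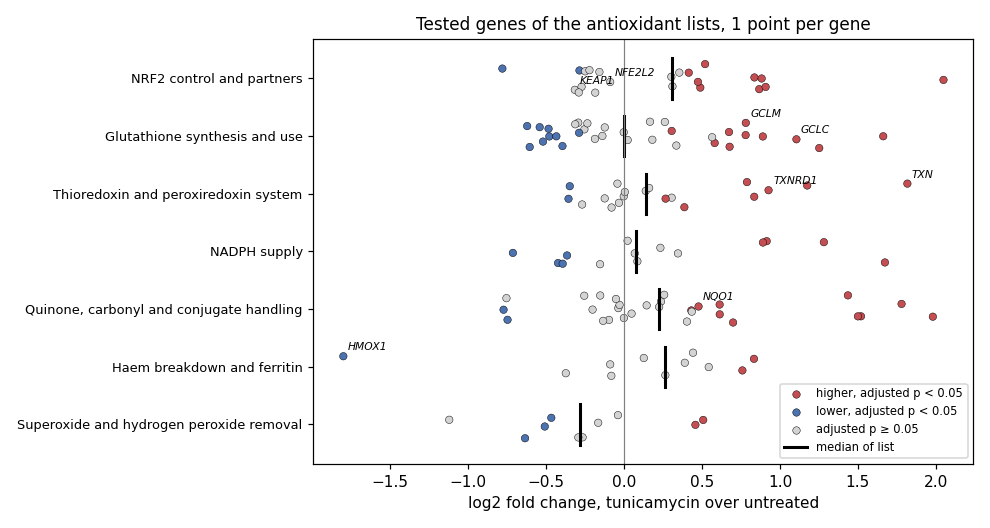
The log2 fold change with tunicamycin (x axis) of each tested gene in the 7 lists, coloured by direction where the adjusted p is under 0.05, with black lines at the medians and members named. Medians run from -0.28 (superoxide) to 0.31 (NRF2 control), and HMOX1 lies apart at -1.80.

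By level in untreated cells the members ran from NQO1 (2078 ± 133 normalized counts) through NFE2L2 (429 ± 50.5), HMOX1 (373 ± 79.5), TXN (262 ± 43.7), KEAP1 (188 ± 31.3), TXNRD1 (168 ± 26.6) and GCLC (127 ± 18.7) to GCLM (100.1 ± 12.5). NQO1 was 4.84 times the next, and every other neighbouring pair down to GCLM overlapped in range. With tunicamycin the order was NQO1 (2894 ± 214), TXN (931 ± 364), NFE2L2 (401 ± 62.3), TXNRD1 (320 ± 19.2), GCLC (272 ± 29.7), GCLM (173 ± 20.4), KEAP1 (151 ± 14.9) and HMOX1 (106 ± 11.7). HMOX1 had moved from rank 3 to rank 8, and TXN from 4 to 2. Of the tunicamycin neighbours only NQO1 and TXN, GCLC and GCLM, and KEAP1 and HMOX1 did not overlap.

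The genes most like each member were taken as those with the smallest root mean square difference of centred log2 values over the 10 libraries, among 7692 genes with a mean of at least 50 normalized counts. They were PDE3B and MACF1 for NFE2L2, RDH13 and NRBP1 for KEAP1, RAB10 and FAU for NQO1, and DTL and HELLS for HMOX1. For GCLC they were TES and GOT1, for GCLM TIMM17A and CXCL16, for TXNRD1 NFE2L1 and CLDN1, and for TXN IARS and ZNF146. The difference was smallest for NQO1 and RAB10, at 0.064, and among the nearest genes largest for HMOX1 and DTL, at 0.16.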

How the data were processed

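The authors made 3′ mRNA libraries (QuantSeq, forward), processed the reads with the nf-core RNA-Seq pipeline at default settings on hg19 with Ensembl transcript definitions, and deposited raw counts per gene without normalization. The aligner, counting program and strand setting are not named in the sources used here. Genes were filtered with filterByExpr (minimum count 2, minimum total 10), scaled by TMM and tested with edgeR 4.0.16 (R 4.3.3) with a quasi-likelihood fit on condition alone and Benjamini-Hochberg adjustment over all tested genes at 0.05. A standard error is the log2 fold change divided by the root of its F statistic. Log2 values and ratios used a pseudocount of 0.5. In simulated data for this comparison, over 12562 genes, 93 were changed by 1 and 107 by 2 on the log2 scale. Of these 84.9% and 97.2% were recovered, with 14 false calls. Genes with few counts were left unchanged, and no effect of day was simulated. Far fewer genes were changed than were called in the real data, so these shares need not hold there.

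The series text places the 5 replicates on separate days, so libraries were paired by replicate number. Over 9707 genes the paired deviations from group means correlated at 0.36, 0.02, 0.076, 0.162 and 0.137. Untreated replicates 1, 3 and 4 correlated best with the tunicamycin library of their own number. Untreated replicate 2 correlated best with tunicamycin replicate 1, and untreated replicate 5 with tunicamycin replicate 4. The counts thus bear out the pairing only in part. Libraries of a condition differed by at least 3.98 times the counting variance, so none was merely another library sequenced again. This measure cannot tell a second library of the same culture from one of another culture. The p-values measure the spread between these cultures of one line.

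The members and lists were chosen with earlier results of these data known. Named in each list were up to 4 higher and 4 lower called genes with the largest log2 fold changes, at least 20 normalized counts on average and one direction in all pairs, and any gene of the list of NRF2 control. SLC7A11, PRDX5, TXN2, TXNRD2, HMOX2, OSGIN1, FTL, AKR1A1, AKR1B1, AKR1C3, AKR7A2 and AKR7A3 were added after their values were seen. PECAM1 was not analysed here, and SEPP1 was used for SELENOP. Positions are from GENCODE on GRCh38, matched by Ensembl identifier, and no hg19 coordinate is given.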

Additional observations from a re-analysis of the deposited data

Results flagged for a closer look

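In 5 of 152 sets of 5 values, 1 library stood apart by Dixon's criterion, and chance alone gives about 7.6 such sets. No member, ratio or library measure was among them. In untreated replicate 1, MAFF had 53.4 normalized counts (28.5 to 32.1 in the other 4), MAFG 298 (377 to 408) and EP300 784 (381 to 436). OPLAH had 42 in untreated replicate 3 (58.9 to 62.8), and AKR1C1 had 1544 in tunicamycin replicate 5 (1281 to 1327).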

How the results depend on the processing

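The 6 called members kept their direction and call in all 20 alternatives (DESeq2 1.42.0, 2 other scalings, 3 other filters, the replicate block with either tool, thinning to the smallest library, removal of mitochondrial genes and leaving out each library), and 5 members were called higher in each. The number called lower was 2 in place of 1 with the replicate block in edgeR and with library size only, since KEAP1 was then called (-0.32 and -0.39), and 1 to 2 when a library was left out, where KEAP1 ranged from -0.40 to -0.26. In the list of NRF2 control, 4 genes were lower with the block and 4 with library size only, and 1 to 3 without a library. With library size only, the haem list had 2 lower and the superoxide list 5, and the haem list had 2 to 4 higher without a library. Over all tested genes the number lower moved too, from 2116 to 2312 with the block in edgeR and 2570 with library size only. Without a library 1827 to 2171 of all tested genes were lower and 1956 to 2317 higher. The median of all genes was -0.083 on the log2 scale with library size only. The block changed no call of another member and no other count by over 1.5 times. For the ratio of GCLM to GCLC thinning gave -0.28 (exact permutation p = 0.103), the sign-flip test within pairs p = 0.0625 at -0.32, the smallest that 5 pairs allow, and leaving out a library -0.40 to -0.26. The ratio of TXNRD1 to TXN ranged from -1.08 to -0.61 without a library. The cause of these shifts was not tested. Depth limits genes with few counts, such as BACH1.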
